A study of Mus musculus with 15 samples.

Results

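Pianp, Apobec1, Chchd4, Thnsl2, Nfu1, Efcab12 and Rab26 are 7 genes away from chromosome 5. Their probe signals in these arrays differed between mammary tumours of Wsh and of B6 mice, for some genes not on every probe. These genes were chosen for that difference, so the differences given here for them are a description and carry no test. Every non-control probe that the array files name for these genes was taken, which gave 13 probes of 56605. Among the 22344 genes measured, they are 7. By the probe positions in the files, 6 of the genes lie on chromosome 6 and 1, Rab26, lies on chromosome 17.

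All tumours arose spontaneously in MMTV-PyMT transgenic mice, in which the mammary tumour virus promoter drives the polyoma middle T oncogene in mammary epithelium, and all were taken at 20 weeks of age. The groups were 8 tumours from the B6 background, given in the series as C57BL/6, and 7 from the Wsh background. Mice of that name carry the W-sh allele of Kit, an inversion of chromosome 5 next to that gene, and lack mast cells as adults. The transgene and the age were common to both groups, while the Kit allele, the mast cells and whatever further DNA sets Wsh and B6 apart cannot be told apart in this design. Each tumour was measured on 1 array, and whether tumours shared a mouse is not stated, so p-values cover only the spread between these samples.

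The genes belong to unlike pathways. Pianp encodes a membrane glycoprotein that binds PILR alpha, an inhibitory receptor of myeloid cells, and is best known from nervous tissue. Apobec1 encodes the cytidine deaminase that edits apolipoprotein B mRNA and is expressed in gut epithelium and in macrophages. Chchd4 (Mia40) oxidises cysteines of proteins entering the mitochondrial intermembrane space, and Nfu1 hands iron-sulphur clusters to mitochondrial enzymes such as lipoate synthase. Thnsl2 is a relative of bacterial threonine synthase, Rab26 is a small GTPase of secretory granules and synaptic vesicles, and Efcab12 is an EF-hand protein of little known function.

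Between 55.7% and 73.4% of spots were well above background on each array, and arrays correlated with each other between 0.926 and 0.988. A level here is the log2 background-corrected signal minus the 75th percentile of its array, so 0 means that percentile. A difference is Wsh minus B6 on that scale. The number of arrays limits the precision. Kit was at 3.24 ± 0.62 (SD, n = 8) on B6 arrays and at 0.59 ± 0.52 (SD, n = 7) on Wsh arrays, in the direction of the group labels. The epithelial identity of the samples showed in the luminal markers, whose mean level was 4.25 to 5.11 in B6 and 4.12 to 4.78 in Wsh tumours. Skeletal muscle transcripts stood out on 5 arrays, 4 Wsh and 1 B6: all 12 measured muscle markers had a difference above 0, and their mean level ran between -3.56 and 1.24 in B6 tumours and between -3.56 and 4.28 in Wsh tumours. Of all 22344 genes, 10768 had a difference above 0 and 11576 below 0.

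Of the 13 probes, 11 passed the signal filter, being well above background on at least 7 of the 15 arrays. In the fit over all 34349 kept probes, 9 of the 11 were past the threshold of adjusted p 0.05, against 0.332% of kept probes overall. The B6 and Wsh arrays did not overlap for 8 of the 11, against 0.399% of kept probes. Since the genes were chosen from this contrast, nothing is read from these counts. Taking the brightest kept probe of each gene, Pianp, Apobec1 and Chchd4 were higher in Wsh and Thnsl2, Nfu1, Efcab12 and Rab26 were lower.

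**Figure D1:**
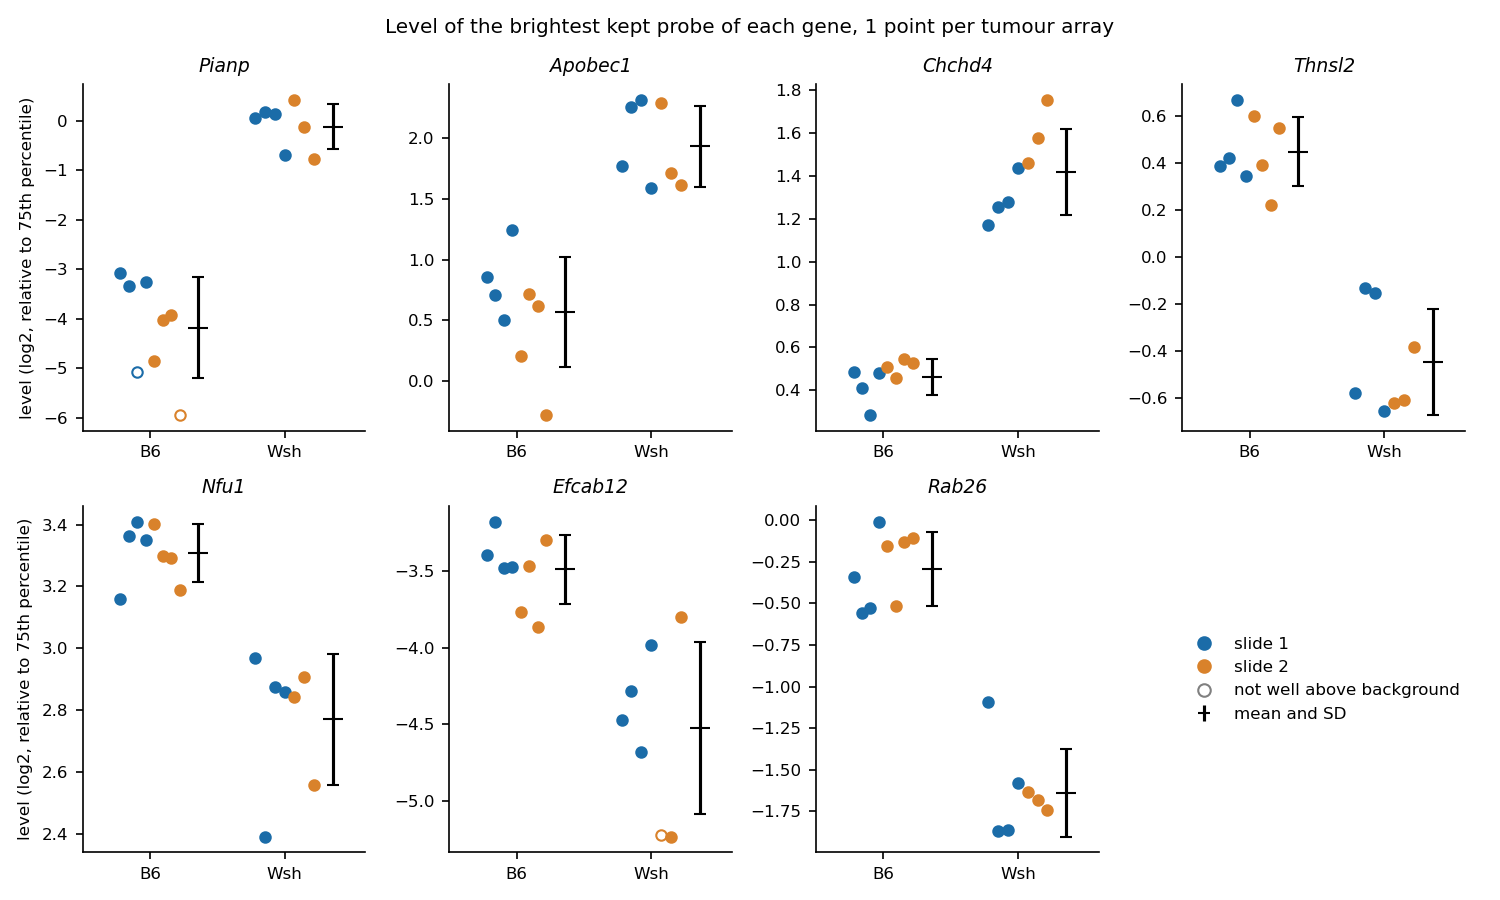
Level of the brightest kept probe of each of the 7 genes (vertical axes, log2 relative to the array's 75th percentile) on every array, in B6 and Wsh columns, with slide 1 in blue and slide 2 in orange. Open points were not well above background, and bars give mean and SD. Efcab12 is the gene whose groups overlap, with its highest Wsh array at -3.80 above its lowest B6 array at -3.86.

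Pianp had the widest separation of the 7 genes. Its probes, shown because they lie at different places in the transcript and differ in how far they rise above background, are written 5′ to 3′ as on the array.
Pianp A_52_P563245, chr6:124950712-124951462 (mm9, plus strand), all 60 bases: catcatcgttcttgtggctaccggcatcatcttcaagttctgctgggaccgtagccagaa
Pianp A_55_P2004532, chr6:124953048-124953107 (mm9, plus strand), its last 30 bases: agtttcaaaattttcaAATAAAgcctttgc
The first spans 751 bases of genome and so crosses a splice junction. In the second the capitals mark AATAAA, the letters of the common polyadenylation signal, which 9.77% of all probes hold on the probe strand and 13.3% on either strand.

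On the A_55_P2004532 probe, the B6 tumours ran from -5.94 through a median of -3.97 to -3.08 in Pianp level, and 6 of 8 B6 arrays were well above background. The Wsh tumours ran from -0.77 through a median of 0.06 to 0.42, with all 7 well above background. Every Wsh array was above every B6 array, with a gap of 2.31 between the nearest ones. The mean was -4.18 ± 1.02 (SD, n = 8) on B6 arrays and -0.11 ± 0.45 (SD, n = 7) on Wsh arrays, a difference of 4.07 with a standard error (SE) of 0.42 from the pooled SD, or 16.8-fold. That size depended on the background step: the difference was 3.25 with normexp correction and 3.35 in the authors' deposited log2 values. In tissue pieces such as these, more cells that express a gene and more transcript per cell cannot be told apart.

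The junction probe A_52_P563245 was not well above background on any B6 array and was so on 5 of 7 Wsh arrays, so it did not pass the signal filter. Its level was -6.99 ± 0.37 (SD, n = 8) on B6 arrays and -4.91 ± 0.60 (SD, n = 7) on Wsh arrays. Each B6 array was also set at the lowest signal well above background on it, where the probe itself was not brighter. The Wsh mean was then 1.26-fold higher. The 2 Wsh arrays at background entered that mean at their measured signal, so the figure is not a strict lower limit. The measured difference of 2.08 fell to 0.55 with normexp correction and to 0.74 in the deposited values. With all B6 arrays and 2 Wsh arrays at background, the order of single arrays on this probe gives no reading.

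Of the PILR receptors and their other ligands, all 5 listed genes were measured and 0 were past the threshold, with a median difference of 0.14 against -0.01 over all genes. Pilra, the inhibitory receptor that binds Pianp, differed by 0.33 (SE 0.19, limma adjusted p = 0.599), and its activating counterpart Pilrb1 by 0.14 (SE 0.25, limma adjusted p = 0.907). Here and below, SEs of genes other than the 7 are those of the limma fit, not of the pooled SD. Npdc1, another ligand of Pilra, differed by -0.06. Clec4g, well above background on 4 B6 and 3 Wsh arrays, differed by -0.58. The sign of the median turned with normexp correction, where it was -0.02. Neuronal markers, in view of where Pianp is best known, had 0 of 6 measured genes past the threshold and a median difference of 0.04, and their mean level was -2.01 to -1.18 in B6 and -1.80 to -1.30 in Wsh.

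Apobec1 was read by 3 probes, and they did not give the same picture. They are shown so that their positions can be compared.
Apobec1 A_55_P2099560, chr6:122527908-122527967 (mm9, minus strand), first 30 bases: caaaaaagcaaattatctcccctgagtggt
Apobec1 A_51_P160754, chr6:122528019-122528078 (mm9, minus strand), first 30 bases: gggttgtatgtacacactgtggcactcctg
Apobec1 A_52_P55029, chr6:122538174-122541147 (mm9, minus strand), all 60 bases: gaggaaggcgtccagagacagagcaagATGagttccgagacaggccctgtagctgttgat
The first and second lie 51 bases apart. The third lies further towards the 5′ end of the gene, spans 2974 bases of genome and so crosses a junction, and holds an ATG, marked in capitals, which 69.7% of all probes hold on the probe strand. No other probe on the array shared a run of 20 bases with any of the 13 probes.

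The A_55_P2099560 probe gave B6 Apobec1 levels from -0.28 through a median of 0.66 to 1.24. The Wsh levels ran from 1.59 through a median of 1.77 to 2.31. The groups did not overlap, and the means of 0.57 ± 0.45 (SD, n = 8) and 1.93 ± 0.33 (SD, n = 7) differed by 1.36 (SE 0.21), or 2.57-fold. Its neighbour A_51_P160754 ran between -1.28 and 0.49 in B6 tumours and between 0.63 and 1.74 in Wsh tumours, without overlap, and differed by 1.47 (SE 0.24). With normexp correction the differences were 1.34 and 1.43.

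The junction probe A_52_P55029 was well above background on all 15 arrays and its groups overlapped. Its B6 levels ran from -3.17 through a median of -2.46 to -1.81 and its Wsh levels from -3.39 through a median of -2.65 to -2.32. Most arrays of either group lay within the range of the other, and the difference was -0.27 (SE 0.20), below 0 in each of the 30 other settings tried.

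The 3 probes also related to each other differently within each group. The neighbouring pair moved together over the 8 B6 arrays (r = 0.980) and over the 7 Wsh arrays (r = 0.953). The junction probe followed A_55_P2099560 over the 8 B6 arrays (r = 0.875) but not over the 7 Wsh arrays (r = -0.194), and A_51_P160754 likewise (r = 0.846 and -0.236). These correlations share arrays and are given as a description. The data hold no exon-level or isoform measurement that would place the difference within the transcript.

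**Figure D2:**
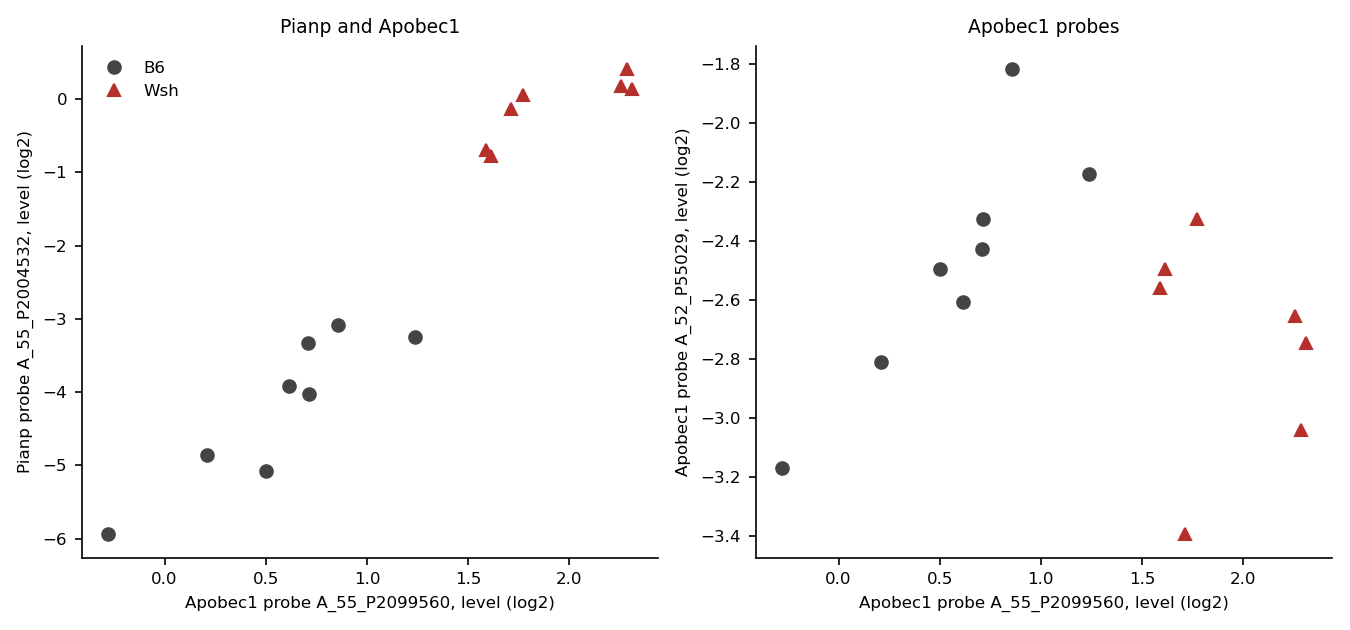
Each point is 1 array, circles B6 and triangles Wsh, and all axes are levels (log2 relative to the array's 75th percentile). On the left, Pianp is plotted against Apobec1, and within each group arrays high in one are high in the other (r = 0.897 in B6, 0.842 in Wsh). On the right, the junction probe of Apobec1 is plotted against A_55_P2099560: the B6 points climb and the Wsh points do not.

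Pianp and Apobec1 lie 2425.1 kb apart on chromosome 6. Over the 8 B6 arrays their levels had r = 0.897 and rho = 0.881, with an exact permutation p = 0.00136 for r and 0.00724 for rho. Over the 7 Wsh arrays r was 0.842 and rho 0.857, with an exact permutation p = 0.0181 and 0.0238. Without the 2 arrays farthest from the median of Pianp, r was 0.838 in B6 and 0.794 in Wsh. Adjusted over the 42 correlations computed between the 7 genes in both groups, the p of r was 0.0573 in B6 and 0.257 in Wsh, so neither passed, and 0 of the 42 did. With values centred on their slide within the group, r was 0.856 and 0.843. B6 replicate 8 was the lowest array of its group in both genes.

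Macrophage transcripts are given beside these genes because Apobec1 is expressed in macrophages. All 9 macrophage markers had a difference above 0, beside 10768 of all 22344 genes. The median of the 9 was 0.30, and 0 were past the threshold. Their mean level ran between 0.50 and 2.30 in B6 tumours and between 1.35 and 2.35 in Wsh tumours, so the groups overlapped. Over the 8 B6 arrays that mean level had r = 0.737 with Apobec1 and r = 0.774 with Pianp, with exact permutation p = 0.0383 and 0.0225, which became 0.507 and 0.442 after adjustment over 182 such correlations. Over the 7 Wsh arrays r was -0.04 with Apobec1 and 0.12 with Pianp. Without the 2 arrays farthest from the median of the macrophage list, r in Wsh was 0.872 with Apobec1 and 0.561 with Pianp. The macrophage list was not the one closest to Pianp in B6. There r was 0.874 with the T and NK cell list, 0.821 with the B and plasma cell list and 0.786 with the mast cell list. None of these passed adjustment either. Adgre1 and Csf1r, surface markers of macrophages, differed by 0.41 (SE 0.27) and 0.12 (SE 0.22). Whether macrophage content had a part in the levels of Apobec1 or Pianp was not tested.

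Among the other RNA editing and APOBEC genes, 12 of 16 were measured and 0 were past the threshold, with a median difference of -0.05. Apobec3, the antiviral deaminase of mice, differed by -0.03 (SE 0.13) and Rbm47, an RNA-binding cofactor of Apobec1, by -0.16 (SE 0.12). The editing enzymes of adenosine, Adar and Adarb1, differed by -0.16 (SE 0.18) and 0.32 (SE 0.11). Apobec2, a muscle relative, had the widest difference, 2.84 with an SE of 1.61 (limma adjusted p = 0.583), beside the skeletal muscle transcripts described above, whose part in it was not tested.

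Chchd4 varied little within the groups, and 7.03% of kept probes had a smaller pooled within-group SD. Its single probe, A_51_P254234 at chr6:91414696-91414755 (mm9, minus strand), gave B6 levels from 0.28 through a median of 0.48 to 0.55. The Wsh levels ran from 1.17 through a median of 1.44 to 1.75. The lowest Wsh array was above the highest B6 array by 0.63, and the means of 0.46 ± 0.08 (SD, n = 8) and 1.42 ± 0.20 (SD, n = 7) differed by 0.96 (SE 0.08), or 1.94-fold. With 1 probe there is no second reading of the gene on these arrays, and the same holds for Thnsl2 and Rab26.

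Of the partners and substrates of Chchd4 in the disulfide relay, all 22 listed genes were measured, 0 were past the threshold, and their differences ran from -0.23 to 0.13 with a median of -0.03. Gfer, the sulfhydryl oxidase that recycles Chchd4, differed by -0.02 (SE 0.12) and Aifm1, which tethers it, by -0.07 (SE 0.11). Of the imported substrates, the copper chaperone Cox17 differed by 0.07 (SE 0.11). The mean level of the 22 genes, without Chchd4, was 2.65 to 2.87 in B6 and 2.47 to 2.86 in Wsh tumours.

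**Figure D3:**
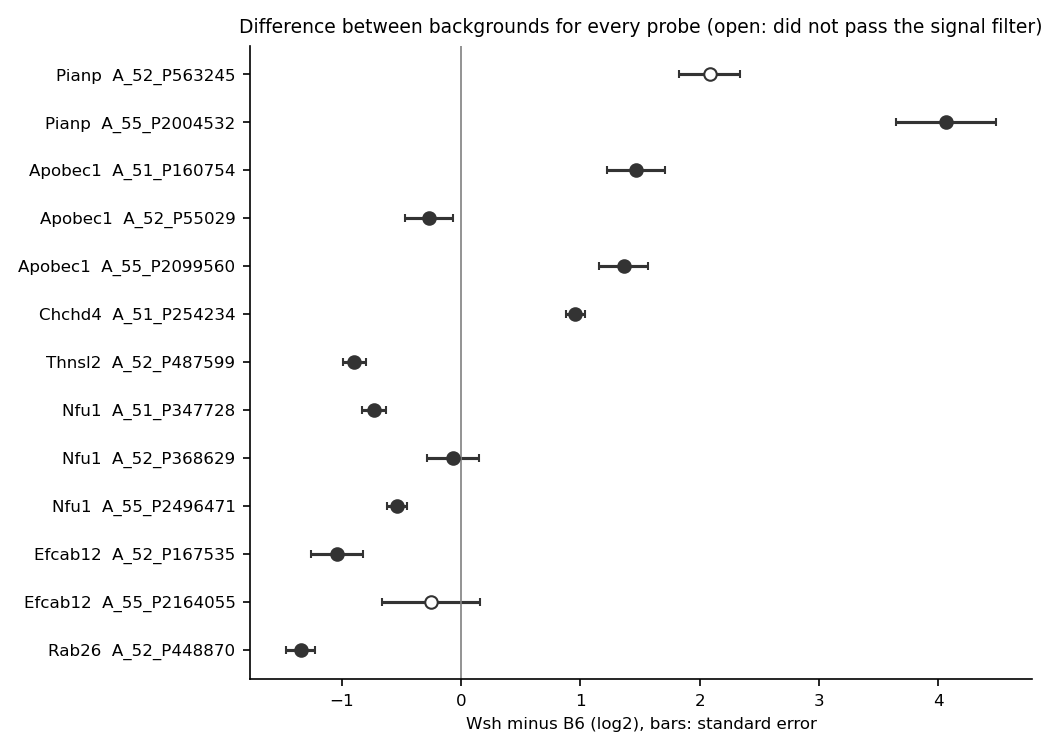
Wsh minus B6 difference (horizontal axis, log2) of each of the 13 probes, with bars for 1 SE. Closed points passed the signal filter and open points did not. Of the 3 Apobec1 probes A_52_P55029 lies at -0.27 beside 1.36 and 1.47, and of the 3 Nfu1 probes A_52_P368629 lies at -0.06 beside -0.54 and -0.73.

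Nfu1 was lower in Wsh on 2 of its 3 probes. They are shown because the groups overlapped on the third, at a different position.
Nfu1 A_52_P368629, chr6:86961515-86961574 (mm9, plus strand), first 30 bases: ggggggaactcaagtcaagtcttttcagat
Nfu1 A_51_P347728, chr6:86970717-86970776 (mm9, plus strand), first 30 bases: atgaagagttagactggaatttactgaaac
Nfu1 A_55_P2496471, chr6:86978381-86978440 (mm9, plus strand), bases 28 to 57: tggaagtttattAATAAAaggtttccttcc
The last holds AATAAA, in capitals, as the Pianp probe does.

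The A_55_P2496471 probe gave Nfu1 levels from 3.16 through a median of 3.32 to 3.41 in B6. In Wsh they ran from 2.39 through a median of 2.86 to 2.97. The groups did not overlap, and the means of 3.31 ± 0.09 (SD, n = 8) and 2.77 ± 0.21 (SD, n = 7) differed by -0.54 (SE 0.08), or 1.45-fold. The A_51_P347728 probe ran between 0.31 and 0.80 in B6 tumours and between -0.40 and 0.14 in Wsh tumours, again without overlap, a difference of -0.73 (SE 0.10) or 1.66-fold.

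These probes followed each other over the 7 Wsh arrays (r = 0.940) and hardly over the 8 B6 arrays (r = 0.105). The upstream probe A_52_P368629 was well above background on 4 of 8 B6 and 4 of 7 Wsh arrays. It was at -4.96 ± 0.56 (SD, n = 8) and -5.03 ± 0.15 (SD, n = 7), the groups overlapped, and its sign changed between settings.

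Of the other genes of mitochondrial iron-sulphur cluster assembly and lipoate synthesis, 26 of 27 were measured and 0 were past the threshold. Their differences ran from -0.23 to 0.23 with a median of -0.05. Iscu, the scaffold on which clusters form, differed by -0.18 (SE 0.12). Lias, the lipoate synthase that Nfu1 serves, differed by -0.23 (SE 0.14) and Sdhb, a cluster-bearing subunit of succinate dehydrogenase, by -0.04 (SE 0.16). When each gene was given the mean of its probes, 1 gene of this list was past the threshold.

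Thnsl2 was lower in Wsh tumours. Its single probe, A_52_P487599 at chr6:71078597-71078656 (mm9, minus strand), gave B6 levels from 0.22 through a median of 0.41 to 0.67. The Wsh levels ran from -0.66 through a median of -0.58 to -0.13. The groups were 0.35 apart at their nearest arrays, and the means of 0.45 ± 0.15 (SD, n = 8) and -0.45 ± 0.23 (SD, n = 7) differed by -0.89 (SE 0.10), or 1.86-fold.

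Thnsl2 was also set against the marker lists within each group. Its r over the 8 B6 arrays was -0.919 with the adipocyte list, -0.930 with the mast cell list and -0.839 with the macrophage list, and 0.891 with the luminal epithelial list. The exact permutation p of these ran from 0.000918 to 0.0096 before adjustment and from 0.106 to 0.349 after adjustment over 182 correlations, so none passed. Over the 7 Wsh arrays r was -0.30 with the adipocyte list, 0.33 with the mast cell list, 0.25 with the macrophage list and -0.04 with the luminal epithelial list. These Wsh values moved when 2 arrays were left out, that of the adipocyte list least. Without the 2 arrays farthest from the median of the list, they were -0.14, 0.853, 0.938 and -0.706 in the same order. In B6 they were then -0.849, -0.880, -0.847 and 0.659. The adipocyte list, with 10 of 11 markers above 0 and 0 past the threshold, had a mean level of -2.44 to 4.52 in B6 and 1.32 to 4.16 in Wsh. With the mean levels of the skeletal muscle and adipocyte lists as covariates, the Thnsl2 difference was -0.84.

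Of 11 other enzymes of threonine and serine metabolism, 10 were measured and 0 were past the threshold, with 5 above 0 and a median of -0.03. Thnsl1, the closest relative, differed by -0.14 (SE 0.16). Tdh, threonine dehydrogenase, differed by 0.65 (SE 0.19, limma adjusted p = 0.219) and was well above background on 3 B6 and 6 Wsh arrays. Srr, serine racemase, differed by -0.42 (SE 0.17, limma adjusted p = 0.403).

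Efcab12 lay close to background and was the least separated of the 7 genes. On probe A_52_P167535 at chr6:115761003-115761062 (mm9, minus strand), B6 levels ran from -3.86 through a median of -3.47 to -3.17. The Wsh levels ran from -5.24 through a median of -4.47 to -3.80, with 6 of 7 arrays well above background. The highest Wsh array, replicate 7, was above the lowest B6 array by 0.06. The means of -3.49 ± 0.23 (SD, n = 8) and -4.53 ± 0.56 (SD, n = 7) differed by -1.04 (SE 0.22), or 2.05-fold, and the difference shrank to -0.65 with normexp correction and to -0.78 in the deposited values.

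The other Efcab12 probe, A_55_P2164055 at chr6:115772189-115772248 (mm9, minus strand), was well above background on 1 B6 array and on 0 Wsh arrays and gives no reading of a difference. Of 14 other Efcab family genes 7 were measured and 0 were past the threshold, with a median difference of 0.11 that was -0.05 with normexp correction. Efcab6, well above background on 4 B6 and 6 Wsh arrays, differed by 0.61 (SE 0.42). Efcab7, a component of the Hedgehog pathway at the cilium, differed by -0.32 (SE 0.13). Multiciliated cell markers, 6 of which were measured, had a mean level of -4.09 to -3.32 in B6 and -4.26 to -3.29 in Wsh, with 0 past the threshold.

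Rab26, the single gene on chromosome 17, was lower in Wsh. Its probe, A_52_P448870 at chr17:24666408-24666467 (mm9, minus strand), gave B6 levels from -0.56 through a median of -0.25 to -0.01. The Wsh levels ran from -1.87 through a median of -1.68 to -1.09. The groups did not overlap, with 0.54 between the nearest arrays, and the means of -0.29 ± 0.22 (SD, n = 8) and -1.64 ± 0.26 (SD, n = 7) differed by -1.34 (SE 0.12), or 2.54-fold. The highest Wsh array, replicate 1, stood apart from the other 6 of its group.

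Of 22 other genes of regulated secretion, 19 were measured. A difference below 0 was found for 17 of the 19, beside 11576 of all 22344 genes, and 0 of the 19 were past the threshold. Their median difference was -0.31 against -0.01 over all genes, and it was -0.26 with normexp correction, -0.41 with arrays scaled to their median, where the median of all genes was -0.11, and -0.27 without the 5 arrays with muscle transcripts. The mean level of the 19 genes, without Rab26, was 0.70 to 1.01 in B6 and 0.53 to 0.64 in Wsh tumours.

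Bhlha15 (Mist1), a transcription factor of secretory cells that is known to act on Rab26, differed by -0.61 (SE 0.16, limma adjusted p = 0.16). The granule GTPases Rab3d and Rab27b differed by -0.51 (SE 0.13, limma adjusted p = 0.122) and -0.59 (SE 0.20, limma adjusted p = 0.28). Rab37, the nearest relative of Rab26, differed by -0.03 (SE 0.16), and Atg16l1, an autophagy protein that binds Rab26, by 0.15 (SE 0.12). With the mean of each gene's probes, 1 gene of this list was past the threshold. Luminal epithelial markers, of which 1 of 7 was above 0, had a median difference of -0.12 and a mean level of 4.25 to 5.11 in B6 and 4.12 to 4.78 in Wsh tumours. Hormone-sensing luminal markers had a median of -0.47 with 1 of 8 above 0 and 0 past the threshold, and a mean level of -0.81 to 1.02 in B6 and -1.38 to 0.31 in Wsh tumours. Mast cell markers had a median of -2.65 with 1 of 7 above 0 and 3 past the threshold. Their mean level was -3.06 to -0.02 in B6 and -4.59 to -3.85 in Wsh tumours. Kit, the gene of the W-sh allele, is in that list, and its difference of -2.65 is the median. It is also 1 of the 3, beside Mcpt4 at -6.70 and Cma1 at -5.36. The mean B6 level of Kit was 3.24, against -0.55 for Tpsb2, the next brightest marker of the list. The part of these cell types in the level of the secretory genes was not tested.

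**Figure D4:**
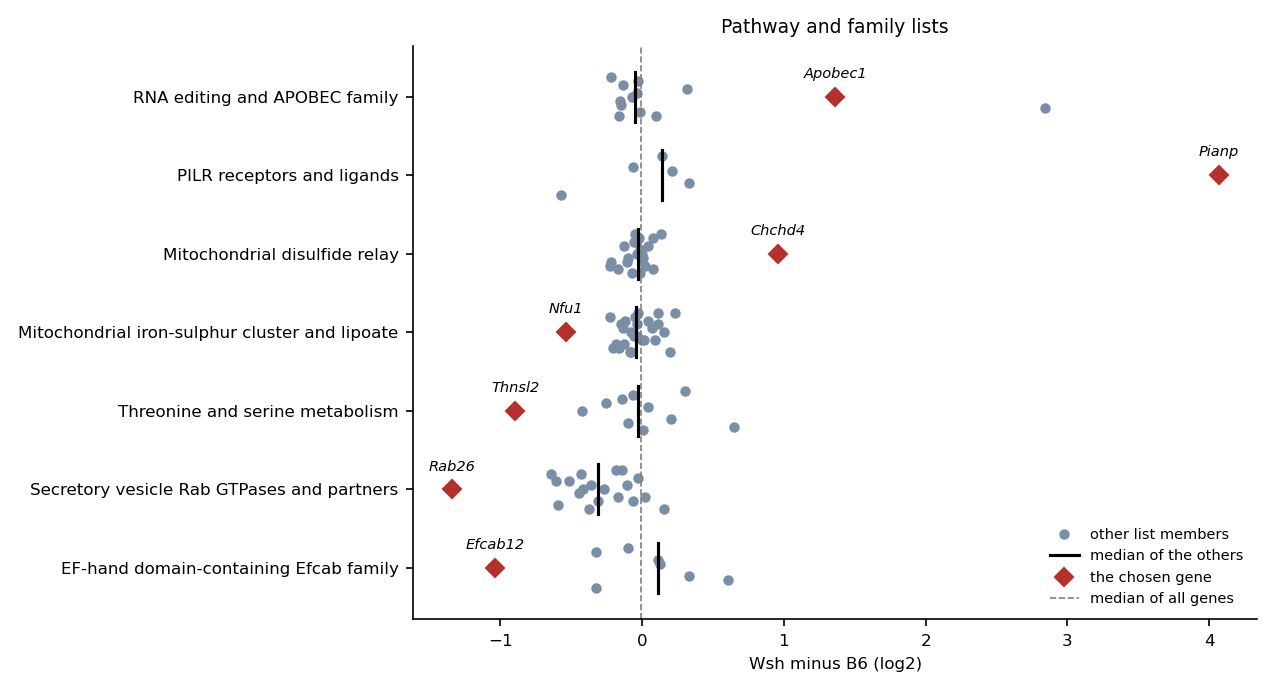
Wsh minus B6 difference (horizontal axis, log2) of each measured gene in 7 pathway or family lists, 1 list a row. Diamonds are the chosen genes, circles the other list members, short black lines their median, and the dashed line the median of all genes at -0.01. The medians of the others lie between -0.31 in the secretory list and 0.14 in the PILR list, and the outlying circle in the RNA editing row is Apobec2 at 2.84.

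The arrays were on 2 slides, each with both groups (4 B6 and 4 Wsh on slide 1, 4 B6 and 3 Wsh on slide 2). Within slide 1 and slide 2 the difference was 3.60 and 4.52 for Pianp, 1.15 and 1.55 for Apobec1 and 0.87 and 1.09 for Chchd4. It was -0.84 and -0.98 for Thnsl2, -0.55 and -0.53 for Nfu1, -0.98 and -1.16 for Efcab12 and -1.24 and -1.46 for Rab26. Since the genes were chosen on these same arrays, the choice itself largely fixes these signs. Without the 5 arrays with muscle transcripts the difference was 4.07 for Pianp, 1.38 for Apobec1 and 1.07 for Chchd4. It was then -0.84 for Thnsl2, -0.68 for Nfu1, -0.95 for Efcab12 and -1.43 for Rab26.

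Slide 2 differed from slide 1 within the groups for 7 of 34349 probes (0.0204%, limma), and for 0 of the 11 kept probes of these genes. The 2 of them with an unadjusted p under 0.05 were the Apobec1 junction probe, at a log2 difference of -0.46 (limma adjusted p = 0.525), and Chchd4, at 0.20 (limma adjusted p = 0.575). The difference between backgrounds did not itself differ between slides past the threshold for any of the 34349 probes (limma interaction, 1736 at an unadjusted p under 0.05). For the 11 probes the interaction's adjusted p lay between 0.980 and 0.995, and the widest term was 0.92 (SE 0.74) for Pianp.

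Chromosome 6 held 17 probes past the threshold of 1800 kept there (0.944%), and 9 of 1790 (0.503%) without the probes of these genes. Chromosome 5, with the inversion, held 17 of 2082 (0.817%), chromosome 17 held 4 of 1652 (0.242%), and the other mapped chromosomes 76 of 28667 (0.265%). The 6 genes on chromosome 6 were spread over 53.87 Mb. For several of the other probes past the threshold on chromosome 6, as for Apobec1 and Nfu1, another probe of the gene did not pass. For the coatomer subunit Copg1 1 probe differed by -2.57 (SE 0.25, limma adjusted p = 6.77e-05) and its brightest probe by 0.45. For the transcription factors Creb5 and Mitf the values were 1.78 (SE 0.22, limma adjusted p = 0.00104) against 0.03 and 1.54 (SE 0.28, limma adjusted p = 0.0288) against 0.01. Phb2, a prohibitin whose brightest probe lies 287.4 kb from that of Pianp, gave -2.25 (SE 0.43, limma adjusted p = 0.0393) against -0.33. Other genes with a symbol did pass at their brightest probe. On chromosome 6 this was 5031434C07Rik, at 1.17 (SE 0.22). On chromosome 17 they were Togaram2, at 1.81 (SE 0.35), and 1700102H20Rik, at -0.64 (SE 0.12). Togaram2 was well above background on 2 B6 and 5 Wsh arrays.

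Within 1 Mb of the 7 genes lay 299 other genes, of which 1 (0.334%) was past the threshold, beside 0.336% of all genes, and 2 (0.669%) had groups that did not overlap, beside 0.358%. The median difference of the 299 was -0.04. The 1 gene past the threshold was an expressed sequence tag 158 kb from Thnsl2, lower in Wsh like Thnsl2, with a difference of -0.76 (SE 0.15, limma adjusted p = 0.0396).

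The values of the closest measured genes on either side that have a symbol in the RefSeq table follow. Beside Pianp, Cops7a and Zfp384 differed by 0.03 each. Beside Apobec1, Mfap5 differed by 0.15 and Gdf3 by 0.57 (SE 0.26). Chchd4 sat between 1810044D09Rik at -0.39 (SE 0.11) and Tmem43 at -0.15.

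Thnsl2 sat between Eif2ak3 at -0.07 and Smyd1 at -0.13, and Nfu1 between Aak1 at 0.24 and Gfpt1 at -0.38 (SE 0.14). Efcab12 lay 5.46 kb from Rpl32 at -0.01, with Mbd4 at 0.63 (SE 0.15, limma adjusted p = 0.113) on its other side. Rab26 lay 0.792 kb from Rab26os, its antisense transcript, which differed by -0.13 (SE 0.14), and near Tsc2 at -0.22. Around Rab26, 72 of 92 genes had a difference below 0, with a median of -0.09, beside 11576 of all 22344 genes. Without the 5 arrays with muscle transcripts it was 65 of 92, beside 11721 of 22344.

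**Figure D5:**
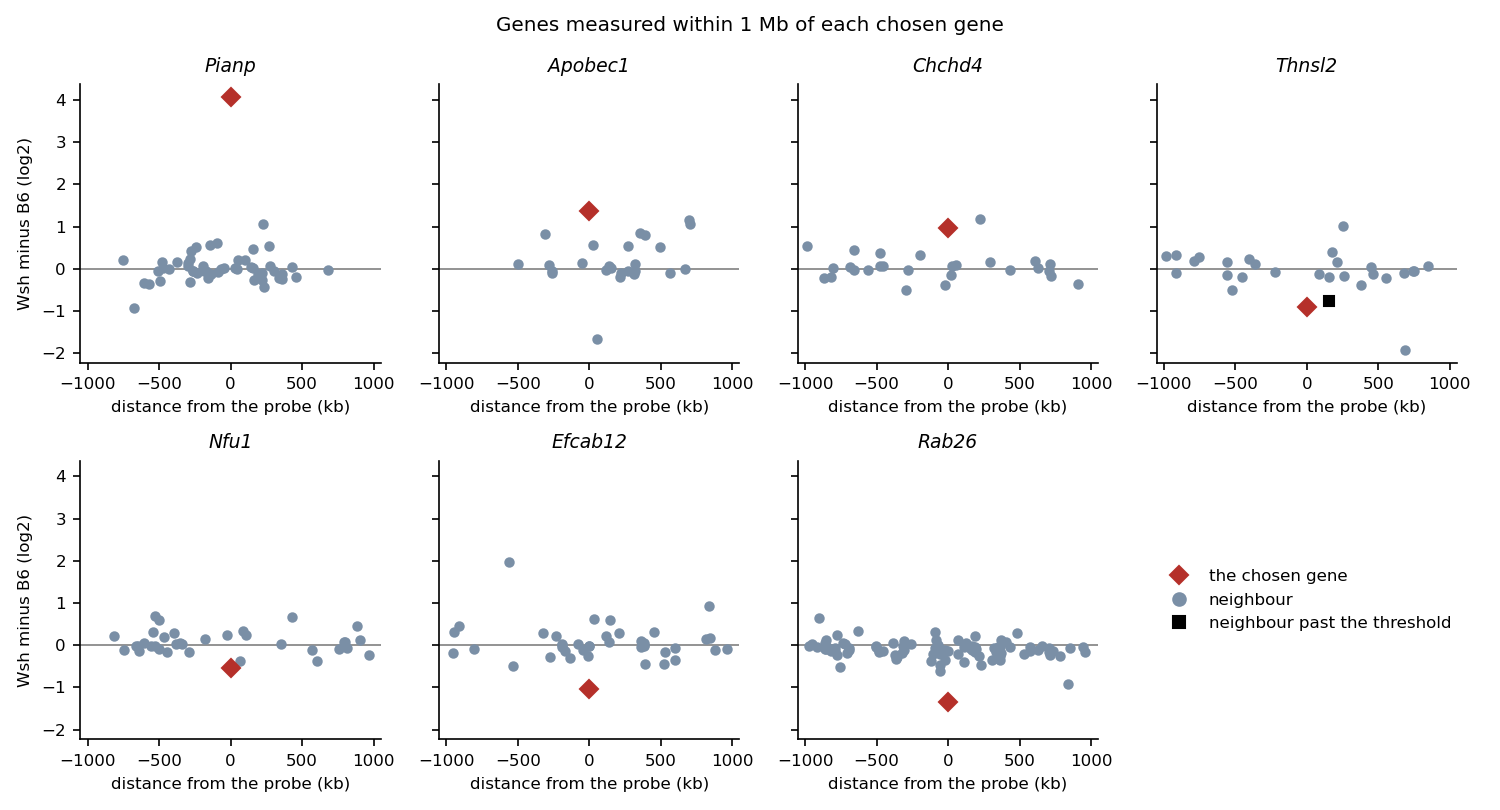
Wsh minus B6 difference (vertical axes, log2) of every gene measured within 1 Mb of each chosen gene, against distance from its probe in kb. The diamond is the chosen gene, circles are neighbours, and the black square near Thnsl2 is the 1 neighbour past the threshold. Pianp at 4.07 and Rab26 at -1.34 lie further from 0 than any of their neighbours. Near each of the other 5 genes at least 1 neighbour lies further from 0. Of those 5, Apobec1, Nfu1 and Efcab12 still lie outside the signed range of their neighbours. The genes were chosen for this difference and their neighbours were not, so nothing is read from that.

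The genes whose levels ran most like each of the 7 were found from levels centred on their group mean over the 15 arrays, among 16631 genes with a symbol. For Pianp they were Sox12 (r = 0.915), LOC102631979 (0.892) and Stab1 (0.873), and for Apobec1 Sox12 (0.884), Pianp itself (0.866) and Tnfaip2 (0.858). Sox12 is a transcription factor and Stab1 a scavenger receptor of macrophages and sinusoidal endothelium. For Chchd4 they were Pigo (0.867), Mtrf1l (0.841) and Gm19510 (0.810), and for Thnsl2 Ccl4 (0.872), 2010001A14Rik (0.872) and AA467197 (0.823).

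For Nfu1 the likest were Exoc6 (0.927), the complex I subunit Ndufa9 (0.912) and the mitochondrial ribosomal protein Mrps17 (0.896), and 73 genes had r over 0.8. Efcab12 had no gene over 0.8, the likest being Gm10790 (0.80), Mvp (0.761) and Nlgn2 (0.760). For Rab26 they included the histone H2bc22 (0.906) and the mitochondrial glycerol phosphate dehydrogenase Gpd2 (0.833). The genes running most opposite were Gon4l for Pianp (-0.870), Rnf181 for Apobec1 (-0.909), Serpina3i for Chchd4 (-0.882), Xk for Thnsl2 (-0.808), Ldb1 for Nfu1 (-0.915), Inafm2 for Efcab12 (-0.860) and Comtd1 for Rab26 (-0.840). These are extremes of many correlations over the same 15 arrays and are a description.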

How the data were processed

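Total RNA of each tumour was labelled with Cy3 and hybridised to a 1-colour Agilent array. Spot intensities were extracted by the authors with Agilent Feature Extraction 10.7.3.1, per the file headers. The deposited log2 table, which ranks each array as median signal minus background does, has an unstated normalization and was used as an alternative. Positions (mm9) and sequences are those of the files.

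Levels were log2 processed intensity minus the array's 75th percentile. Control and outlier spots were left out. A probe was kept when 7 or more of the 15 arrays had it well above background (34349), and a gene was its brightest kept probe (22344 genes). Symbols came from a RefSeq table of GRCm38. Comparisons of groups and of slides used limma 3.58.1 (R 4.3.3), two-sided, Benjamini-Hochberg, after tests on simulated data. Correlations between genes used exact permutation.

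Members, gene lists and marker lists were chosen with earlier results of these data known. Named were every member probe, the 3 genes most like and the 1 least like each member, the nearest neighbours, neighbours and genes on chromosomes 6 and 17 past the threshold, and up to 4 genes per list chosen by role. Some genes named by that rule are not reported here. Replicate numbers did not pair the arrays: deviations of the 7 same-numbered pairs correlated between -0.231 and 0.211.

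Alternatives were normexp (offset 50), quantile or median scaling, other filters, slide or replicate block, single slides, tissue covariates, probe means, moderation options, the authors' own log2 values, and omission of each array. Leaving out the 5 arrays with skeletal muscle transcripts, and the correlations with marker lists, were added after seeing the data.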

Additional observations from a re-analysis of the deposited data

Results flagged for a closer look

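The Rab26 level of Wsh replicate 1 was -1.094, with the next highest Wsh array at -1.582. The gap was 0.63 of the range of the 7 Wsh arrays, above the 95% critical value of Dixon's test. It lay nearest to the B6 arrays and still below all of them. Of 26 sets of values looked at (13 probes in 2 groups), this was the 1 with such an array. Chance gives such an array in about 1 of 20 sets, so nothing is read from it.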

How the results depend on the processing

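The differences of 11 of the 13 probes kept their sign in all 30 other settings. The 2 that changed sign were the dim Nfu1 probe A_52_P368629 and the dim Efcab12 probe A_55_P2164055. Over those settings the kept probes without overlap numbered 8 to 9. No probe of these genes was past the threshold for slide or interaction in any setting in which those were fitted. The 114 probes (75 genes) past the threshold for Wsh against B6 became 49 (25) with no filter, 10 (4) on slide 1 alone, 3 (1) on slide 2 alone, 28 (15) with the replicate block over arrays whose numbers do not pair them, 34 (25) without the arrays with muscle transcripts, and 47 to 131 (25 to 76) with 1 array left out. Probes of these genes among them fell from 9 to 0 on either slide alone, 4 with the replicate block and 3 without the muscle arrays. Higher calls were 36% of all, 57.1% with no filter and 61.8% without the muscle arrays. The slide count of 7 became 3 with normexp, 0 with median scaling or no filter, 4 in the deposited values and 0 to 11 with 1 array left out. The interaction count of 0 became 4 with normexp or quantile scaling, 3 with the filter on all arrays, 1 in the deposited values, 6 with trend and robust moderation and 0 to 13 with 1 array left out. The count of correlations past adjustment was 1 with quantile scaling and 1 in the deposited values, in each case Pianp with Apobec1 in B6 (adjusted exact permutation p = 0.00104 and 0.0281). Signal close to background limits the Pianp and Efcab12 differences. Other causes were not tested.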
